A study of Mus musculus with 85 samples.

Results

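The comparison is of methionine restriction in female control mice: the hippocampus of 10 mice on a methionine-restricted feed (FWTMR) was set against that of 10 mice on the standard feed (FWT), 20 of the 85 libraries of the study. Members were chosen by the group in each sample's title, and each column of the deposited table was matched to its library by the code in the labels. All 20 mice were of the strain C57BL/6J, carried no transgene that the labels name, and were 8 months old. How much methionine each feed held, and for how long it was fed, is not given in the sources used here. Litter, cage and batch are not given either. A difference between groups that came from these cannot be told apart from one of the feed. The other 6 groups enter the model and serve as comparison: control males on standard feed (MWT, n = 11) and restricted feed (MWTMR, n = 10), and mice of the strain APPswePSEN1dE9, here AD mice, as females (FAD, n = 11, standard; FADMR, n = 11, restricted) and males (MAD, n = 11; MADMR, n = 11). APPswePSEN1dE9 mice carry a mutated, part-human App and a mutated human presenilin 1 transgene, both under the promoter of the mouse prion protein gene, and deposit amyloid. Each library was made from total RNA of the hippocampus of 1 mouse.

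Methionine is an essential amino acid that starts protein chains and, as S-adenosylmethionine, supplies the methyl group for the methylation of DNA, RNA, histones and small molecules. What remains after methyl transfer is either remethylated to methionine with folate-borne carbon or passed through transsulfuration to cysteine, glutathione and taurine. Low amino acid supply is known to raise translation of the transcription factor ATF4, to lower mTORC1 activity and, in liver, to raise the hormone FGF21. The question set by the design is whether the restricted feed changed RNA levels in the hippocampus of mice without the disease transgenes.

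Levels are in FPKM, which scales fragments by transcript length and by library, divided here by a factor per library (0.959 to 1.10 over the 20). Differences are FWTMR minus FWT on the scale log2(scaled FPKM + 1), with a standard error (SE), and understate the change of genes of low FPKM. P-values come from limma with Benjamini-Hochberg adjustment over 21297 loci, and a gene is called where the adjusted p is under 0.05. Depth is unknown, since FPKM holds no read counts, so errors come from the spread over mice alone. The granule cell markers Prox1 (0.501 to 14.0 FPKM) and C1ql2 (30.2 to 62.9) and the pyramidal cell markers Wfs1 (29.0 to 121) and Fibcd1 (67.3 to 123) were above 0 in each of the 20 libraries. The lowest Prox1 value is under 1 FPKM, so this marker is weak evidence at that end. FWTMR replicates 5 and 6 stood apart from the rest: their median correlations with the other 19 libraries were 0.930 and 0.942, against 0.947 to 0.956 for the others. They also had low marker sums for oligodendrocytes (4463 and 3840 FPKM) and granule cells (275.3 and 294.1). Results are therefore also given without both.

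With the restricted feed, 6 loci rose and 7 fell in control females, which is 13 of 21297 (0.061%; 0.0282% higher and 0.0329% lower). At an unadjusted p under 0.05 there were 1506 loci (7.07%). Of the 13, 6 carry the symbol of 1 gene and 7 carry none. Tnfrsf25, Zglp1, Tbc1d2 and Nadsyn1 fell, and Lcmt2 and 3010026O09Rik rose. The count was 114 with array weights, 53 with tissue covariates, 5 with a filter at 5 FPKM and 4 without FWTMR replicates 5 and 6. The last 4 include both MSTRG.18758 and MSTRG.18759. Leaving out 1 library gave 6 calls without FWTMR replicate 5, 8 without FWTMR replicate 2, 20 without FWT replicate 9, 25 without FWTMR replicate 9 and 26 without FWTMR replicate 10.

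Promoter windows are printed for the called genes of largest difference, Tnfrsf25 and Zglp1 among those that fell and Lcmt2 among those that rose. Each runs from 250 bases before to 50 bases after an annotated start, 300 bases on build GRCm38.p6 from RefSeq, and is written 5′ to 3′ on the strand of the gene. Capitals mark motif matches on either strand: in Tnfrsf25 the core of the antioxidant response element (TGACNNNGC), and in Zglp1 the E-box (CACGTG).
Tnfrsf25 (chr4:152115684-152115983, plus strand): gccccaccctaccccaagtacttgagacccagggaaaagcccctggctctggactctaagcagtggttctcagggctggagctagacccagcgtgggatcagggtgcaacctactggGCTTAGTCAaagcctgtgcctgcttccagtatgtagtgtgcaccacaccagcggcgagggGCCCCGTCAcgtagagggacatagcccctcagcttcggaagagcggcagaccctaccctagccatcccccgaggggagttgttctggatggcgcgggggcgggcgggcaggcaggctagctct
Zglp1 (chr9:21067044-21067343, minus strand): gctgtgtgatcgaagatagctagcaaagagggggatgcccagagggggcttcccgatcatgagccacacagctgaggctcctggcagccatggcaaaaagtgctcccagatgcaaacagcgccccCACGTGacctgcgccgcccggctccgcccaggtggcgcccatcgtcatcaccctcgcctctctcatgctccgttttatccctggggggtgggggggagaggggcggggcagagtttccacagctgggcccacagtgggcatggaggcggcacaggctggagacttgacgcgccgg
Lcmt2 (chr2:121140649-121140948, minus strand): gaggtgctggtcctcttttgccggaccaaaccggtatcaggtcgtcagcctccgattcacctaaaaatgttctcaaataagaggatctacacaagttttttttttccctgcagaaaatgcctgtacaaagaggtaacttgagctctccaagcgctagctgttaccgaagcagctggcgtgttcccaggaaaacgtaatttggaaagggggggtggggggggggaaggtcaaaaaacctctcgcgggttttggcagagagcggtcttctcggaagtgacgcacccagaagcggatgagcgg

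The motifs searched on both strands were the amino acid response element read by ATF4 (TTGCATCA), the cyclic AMP response element (TGACGTCA), the E-box (CACGTG), the antioxidant core (TGACNNNGC), the GATA box (AGATAA), the TATA box (TATAAA) and the NF-kB site. The Tnfrsf25 window held 2 antioxidant cores, which overlap no other motif searched, and a second annotated window of that gene held none. The Zglp1 window held 1 E-box. Among 32851 promoter windows of the same length, 12.4% held the antioxidant core and 7.15% the E-box. The windows of Lcmt2, 3010026O09Rik, Tbc1d2 and Nadsyn1 held none of the 7 motifs, and the ATF4 element was in 0.895% of all windows. These matches describe the letters only.

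Tnfrsf25 encodes death receptor 3, a receptor of the tumour necrosis factor (TNF) superfamily that binds the cytokine TL1A and co-stimulates T lymphocytes. The gene lies on chr4:152115528-152120119, plus strand. Both of its promoter windows lie inside this span, so neither holds the sequence before its first base. Its level in FWT mice ran from 29.9 to 47.2 FPKM with a median of 35.7. In FWTMR mice it ran from 5.97 to 33.6, with a median of 16.6. All but 1 of the FWTMR mice, 9 of 10, were below every FWT mouse; the exception was FWTMR replicate 11. The mean fell from 36.9 ± 4.83 to 17.1 ± 7.85 FPKM (SD, n = 10 and 10), a ratio of 0.463 and a difference of −1.18 (SE 0.23, adjusted p = 0.00778, limma). Without FWTMR replicates 5 and 6, which held the lowest values, 10.1 and 5.97 FPKM, the difference was −0.96 and no longer passed (adjusted p = 0.134). The neighbouring genes Plekhg5 (difference 0.24, adjusted p = 0.817) and Espn (−0.27, adjusted p = 0.656) were not called.

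Zglp1 encodes a GATA-like zinc finger protein known in mice for its role in germ cells, and lies on chr9:21062393-21067093, minus strand. It was at 1.24 to 2.18 FPKM in FWT mice (median 1.73) and at 0.601 to 1.15 in FWTMR mice (median 0.934). The 2 groups did not overlap. Over all loci, 1 (0.0047%) was lower in every FWTMR mouse than in every FWT mouse, and 4 (0.0188%) were higher in every FWTMR mouse. The mean fell from 1.71 ± 0.309 to 0.893 ± 0.181 FPKM (SD, n = 10 and 10; difference −0.52, SE 0.097, adjusted p = 0.00662, limma). Zglp1 was the only gene with a symbol still called without FWTMR replicates 5 and 6 (−0.55, adjusted p = 0.0164), and was called under each of the 32 alternatives in which it was tested. The neighbouring locus of Fdx1l and Raver1 differed by 0.07 (adjusted p = 0.939).

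Tbc1d2 encodes a GTPase-activating protein that switches off Rab7, a GTPase of late endosomes, and lies on chr4:46604390-46650340, minus strand. Its values were 1.90 to 2.66 FPKM in FWT mice (median 2.17) and 1.04 to 2.02 in FWTMR mice (median 1.56). The groups overlapped in 1 FWTMR mouse, and 9 of 10 were below every FWT mouse. The mean fell from 2.23 ± 0.273 to 1.54 ± 0.302 (SD, n = 10 and 10; difference −0.35, SE 0.079, adjusted p = 0.0439, limma). This call is near the threshold, was lost on leaving out any of 13 of the 20 libraries, and was lost with a pseudocount of 0.1, with FWT and FWTMR fitted alone (adjusted p = 0.0724) and without FWTMR replicates 5 and 6 (−0.32, adjusted p = 0.192).

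Nadsyn1 encodes NAD synthetase, the enzyme of the last step in making NAD from tryptophan or nicotinic acid, and lies on chr7:143795589-143822862, minus strand. It was at 1.47 to 1.99 FPKM in FWT mice (median 1.69) and at 1.10 to 1.61 in FWTMR mice (median 1.27). The groups overlapped in 3 FWTMR mice. The mean fell from 1.71 ± 0.173 to 1.32 ± 0.178 (SD, n = 10 and 10; difference −0.22, SE 0.048, adjusted p = 0.0206, limma). The difference was −0.205 without FWTMR replicates 5 and 6 (adjusted p = 0.134). The call also ended without FWT replicate 2, 7 or 10 or FWTMR replicate 2 or 5 alone, and with FWT and FWTMR fitted alone (adjusted p = 0.122).

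Lcmt2 encodes a methyltransferase that uses S-adenosylmethionine and is known, through its yeast counterpart, for the making of wybutosine, a modified base of transfer RNA. It lies on chr2:121137292-121140698, minus strand. FWT mice had 3.91 to 6.16 FPKM (median 4.82) and FWTMR mice 5.34 to 8.03 (median 6.48). Each FWTMR mouse was above the FWT median and 6 of 10 were above every FWT mouse. The mean rose from 4.89 ± 0.682 to 6.56 ± 0.901 (SD, n = 10 and 10; difference 0.36, SE 0.075, adjusted p = 0.0167, limma). Lcmt2 overlaps the oppositely transcribed Adal by 655 bases, and whether the counting used strand is not given in the sources used here, so reads of the overlap cannot be told apart. Adal itself differed by −0.13 (adjusted p = 0.720). Without FWTMR replicates 5 and 6 the difference in Lcmt2 was 0.35 (adjusted p = 0.0838), and the call also ended without FWT replicate 3 or 7 or FWTMR replicate 2, and with FWT and FWTMR fitted alone (adjusted p = 0.0890).

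3010026O09Rik, now named Mrnip, encodes a partner of the MRE11-RAD50-NBS1 complex, which senses DNA breaks. It lies on chr11:50174851-50200116, plus strand, next to Sqstm1. FWT mice had 1.93 to 3.29 FPKM (median 2.30) and FWTMR mice 2.57 to 3.64 (median 3.24). The highest FWT mouse, replicate 5, stood at 3.29 against at most 2.59 in the others, and 3 of 10 FWTMR mice were above it. The mean rose from 2.36 ± 0.382 to 3.11 ± 0.366 (SD, n = 10 and 10; difference 0.29, SE 0.062, adjusted p = 0.0214, limma). The difference was 0.26 without FWTMR replicates 5 and 6 (adjusted p = 0.160). The call also ended without FWT replicate 3, 10 or 11 or FWTMR replicate 5, 6 or 7, and with FWT and FWTMR fitted alone (adjusted p = 0.126).

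**Figure D1:**
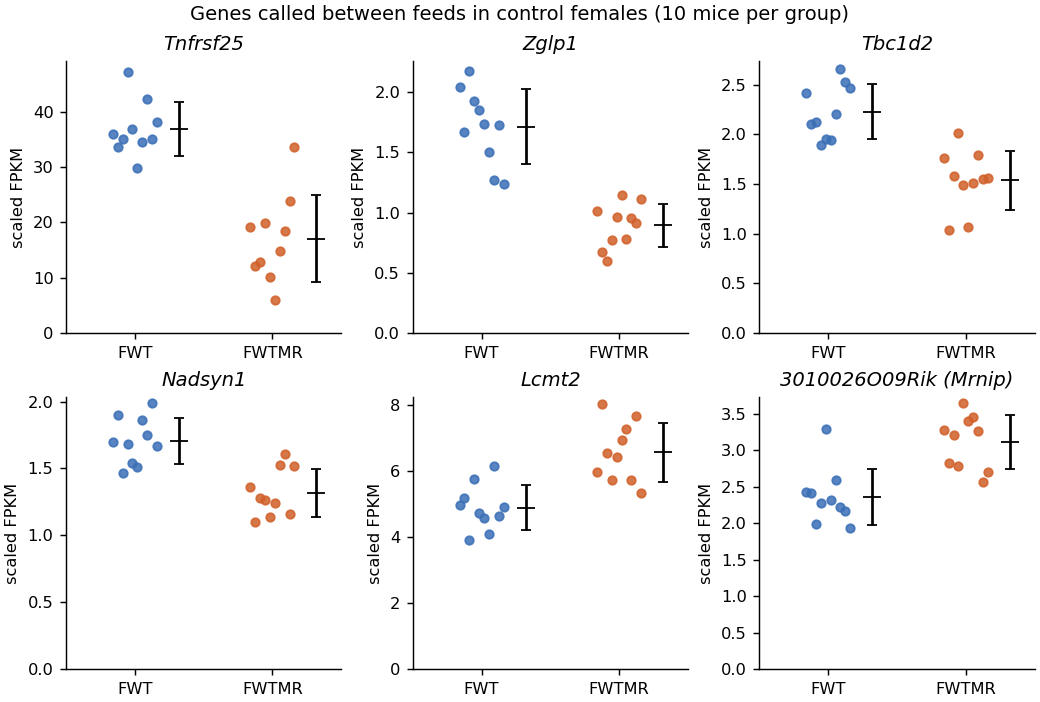
Scaled FPKM (vertical axis, from 0) of the 6 called genes with a symbol in each FWT mouse (blue) and FWTMR mouse (orange); the black mark and bar give mean ± SD, n = 10 per group. Tnfrsf25, Zglp1, Tbc1d2 and Nadsyn1 sit lower in FWTMR mice and Lcmt2 and 3010026O09Rik higher, and the 2 groups of Zglp1 do not overlap.

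Of the 7 called loci without a symbol, 4 rose and 3 fell. The locus MSTRG.4801 was at 4.25 to 6.94 FPKM in FWT mice (median 6.22) and at 7.46 to 10.6 in FWTMR mice (median 8.37), so that the groups did not overlap. Its difference was 0.46 (SE 0.088, adjusted p = 0.00778, limma). MSTRG.1756 rose by 0.67 (SE 0.13, adjusted p = 0.00797), with 7 of 10 FWTMR mice above every FWT mouse. That call ended without FWTMR replicate 5, without FWTMR replicates 5 and 6 (0.54, adjusted p = 0.134) and with FWT and FWTMR fitted alone (adjusted p = 0.0823). MSTRG.18759 fell from 2.38 ± 0.437 to 1.20 ± 0.353 FPKM (difference −0.62, adjusted p = 0.00137, the smallest of this comparison), and MSTRG.18758 from 13.6 ± 2.49 to 6.86 ± 2.01 (−0.92, adjusted p = 0.00167; SD, n = 10 and 10). In both, 9 of 10 FWTMR mice were below every FWT mouse. The levels of MSTRG.18758 and MSTRG.18759 kept a nearly fixed proportion to each other in every group, and both had a ratio of means of 0.506. They are thus the same signal and not separate results. The files do not pair these identifiers with genes.

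The genes given next missed the threshold. Arc is among the genes always given and ranked 24 by p, behind Lyl1, 8430408G22Rik, Dscaml1, 5430416O09Rik and Jak2. Arc, whose protein moves to active synapses, is a marker of neuronal activity. It was at 14.8 to 26.5 FPKM in FWT mice (median 20.5) and at 6.26 to 19.1 in FWTMR mice (median 10.9), with 9 of 10 FWTMR mice below every FWT mouse. The means were 21.0 ± 3.42 and 11.1 ± 3.80 FPKM (SD, n = 10 and 10), a ratio of 0.529 and a difference of −0.91 (SE 0.22, adjusted p = 0.0637, limma). Arc passed when FWT and FWTMR were fitted alone (adjusted p = 0.0257), and without FWTMR replicates 5 and 6 its difference was −0.75 (adjusted p = 0.336).

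Lyl1, a transcription factor gene of the blood and endothelial lineages, was at 1.83 ± 0.349 and 2.61 ± 0.562 FPKM (difference 0.35, adjusted p = 0.0520). Dscaml1, a neuronal cell adhesion gene, was at 41.0 ± 3.62 and 51.2 ± 4.21 (0.31, adjusted p = 0.0633), with 9 of 10 FWTMR mice above every FWT mouse. Jak2, the tyrosine kinase of many cytokine receptors, was at 28.1 ± 1.599 and 22.8 ± 3.09 (−0.30, adjusted p = 0.0633), with 8 of 10 below every FWT mouse. Of the Lyl1 values, 6 of 10 in FWTMR mice were above every FWT mouse. 8430408G22Rik, now Depp1, known for its regulation by FOXO factors, was at 1.34 ± 0.449 and 0.629 ± 0.296 (−0.52, adjusted p = 0.0633), and lies inside Rassf4 on the other strand. 5430416O09Rik, now Spaar, encodes a small lysosomal protein that dampens mTORC1 activation by amino acids. It was at 0.488 ± 0.195 and 0.890 ± 0.251 FPKM (0.34, adjusted p = 0.0633), and its neighbour Hrct1 differed by 0.35 (adjusted p = 0.0633; all SD, n = 10 and 10, limma).

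Levels over all 8 groups placed FWT at the edge for each of the 6 called genes with a symbol. Tnfrsf25 was at 36.9 FPKM in FWT, whereas the other 7 group means ran from 17 in FADMR to 24.8 in MAD. The FWT mean was also the highest for Zglp1 (1.71, against 0.893 in FWTMR to 1.35 in MAD), Tbc1d2 (2.23, against 1.32 in MADMR to 1.88 in MAD) and Nadsyn1 (1.71, against 1.29 in MADMR to 1.55 in FADMR). It was the lowest for Lcmt2 (4.89, against 5.20 in MAD to 6.56 in FWTMR) and for 3010026O09Rik (2.36, against 2.41 in MADMR to 3.11 in FWTMR). FWTMR lay within the range of the remaining 6 groups for Tnfrsf25, Tbc1d2 and Nadsyn1, and at the opposite edge from FWT for the other 3. The 6 genes were picked for the difference between FWT and FWTMR in these same values, which favours a place at the edge for FWT. These orders were not tested.

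**Figure D2:**
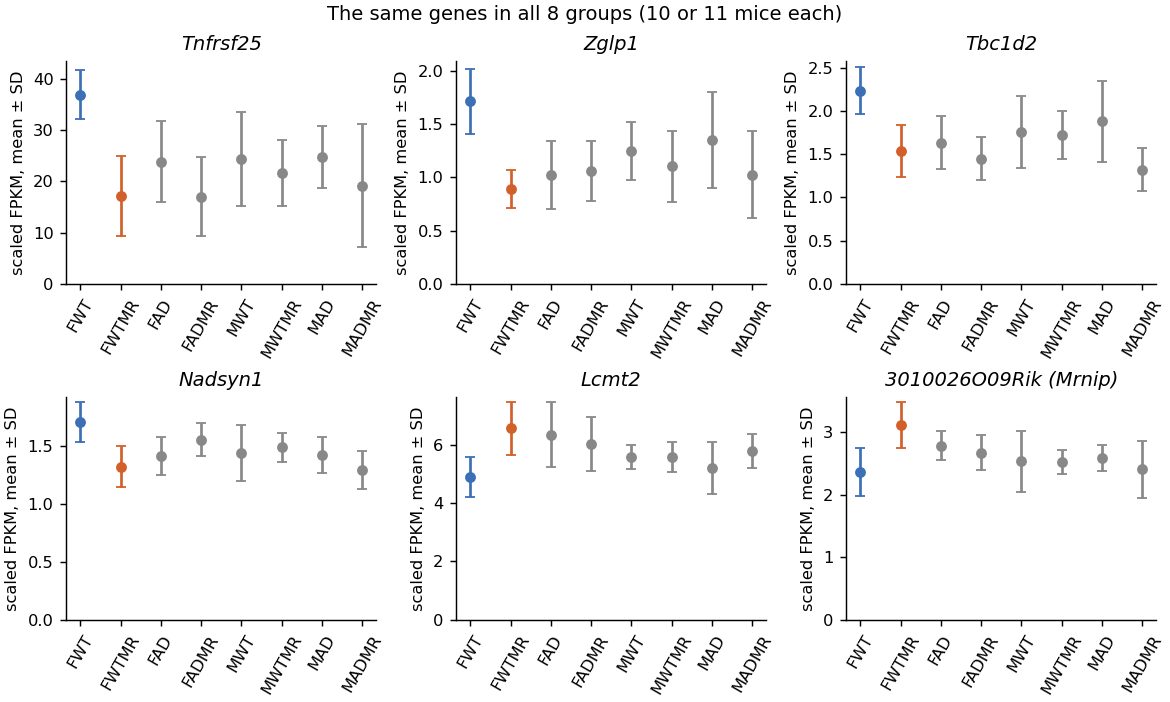
Mean ± SD of scaled FPKM (vertical axis, from 0) for the 6 called genes in all 8 groups of 10 or 11 mice, FWT in blue, FWTMR in orange and the other groups in grey. FWT is the highest group for Tnfrsf25, Zglp1, Tbc1d2 and Nadsyn1 and the lowest for Lcmt2 and 3010026O09Rik. Picking the genes by the difference between FWT and FWTMR favours such a place.

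The same feed contrast can be read in 3 further pairs of groups that share no mouse with FWT and FWTMR. None of the 6 genes was called in any of them; over all loci, 2 were called in AD females, both lower (0.00939%), and 2 in AD males (0.00939%; 1 higher, 0.0047%, and 1 lower, 0.0047%). In control males, the differences of the 6 lay between −0.13 (Tnfrsf25) and 0.03 (Nadsyn1), and no gene in the whole table was called there (0 of 21297, 0%; 1454 at an unadjusted p under 0.05). Tnfrsf25 differed by −0.54 in AD females (unadjusted p = 0.0150, adjusted p = 0.678) and by −0.47 in AD males (unadjusted p = 0.0340, adjusted p = 0.764, limma). Tbc1d2 differed by −0.30 in AD males (unadjusted p = 0.000166, adjusted p = 0.225), and Zglp1 by −0.22 (unadjusted p = 0.0226, adjusted p = 0.717). Lcmt2 and 3010026O09Rik were near 0 in AD females (−0.07 and −0.04). Arc was at a difference of −0.78 in AD males (adjusted p = 0.296) and of 0.14 in AD females (adjusted p = 0.994).

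Whether the feed effect differed between the sexes of control mice was tested as an interaction. No gene passed (0 of 21297, 0%), while 1643 had an unadjusted p under 0.05. The count was 88 with array weights, 3 with tissue covariates, 3 without FWTMR replicate 9 and 7 without FWTMR replicate 10. The smallest adjusted p, 0.0817, belonged to Lyl1 (female minus male effect 0.51) and Jak2 (−0.45). For Tnfrsf25 the effect in females was lower than in males by 1.05 (SE 0.32, adjusted p = 0.278), for Zglp1 by 0.41 (adjusted p = 0.343), for Tbc1d2 by 0.34 (adjusted p = 0.337) and for Nadsyn1 by 0.26 (adjusted p = 0.159, limma). For Lcmt2 it was higher by 0.36 (adjusted p = 0.231). So the calls in control females and their absence in control males are not shown to differ.

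Between genotypes, 7 loci passed the test that the feed effect in control females differed from that in AD females (0.0329%), 5 with the higher effect in control females (0.0235%) and 2 with the lower (0.00939%). Of these, 4 carry a symbol. Nadsyn1 differed by −0.22 in control and 0.08 in AD females (difference of effects −0.31, SE 0.066, adjusted p = 0.0449). Jak2 differed by −0.30 and 0.16 (−0.46, adjusted p = 0.0449), Lyl1 by 0.35 and −0.16 (0.51, adjusted p = 0.0449), and Dscaml1 by 0.31 and −0.21 (0.52, adjusted p = 0.0449, limma). The estimates of these 4 had opposite signs in the 2 genotypes, which picking by the difference of effects favours. None of the 4 was called in AD females alone (adjusted p = 0.586 for Dscaml1 to 0.828 for Nadsyn1, limma), so a reversal there is not shown. The locus MSTRG.4801 also passed the test of the difference (0.56, adjusted p = 0.0467). Tnfrsf25 (−0.64, adjusted p = 0.854), Zglp1 (−0.55, adjusted p = 0.118), Tbc1d2 (−0.25, adjusted p = 0.817) and Lcmt2 (0.43, adjusted p = 0.112) did not. The count of 7 depended on the processing and on single libraries. It was 0 with no filter, with FPKM as deposited or with equal totals, 1 with a filter at 5 FPKM, 2 with the replicate block, 21 with tissue covariates and 27 with array weights. It was also 0 without FWTMR replicates 5 and 6 together, and 0 without any one of FWT replicates 2, 5 and 10 and FWTMR replicates 3, 4, 5, 6 and 7. It was 1 without FWT replicate 3, 7 or 9, 2 without FWTMR replicate 2, 3 without FWT replicate 4, 4 without FWT replicate 6, 11 without FWTMR replicate 1 and 12 without FWTMR replicate 9.

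**Figure D3:**
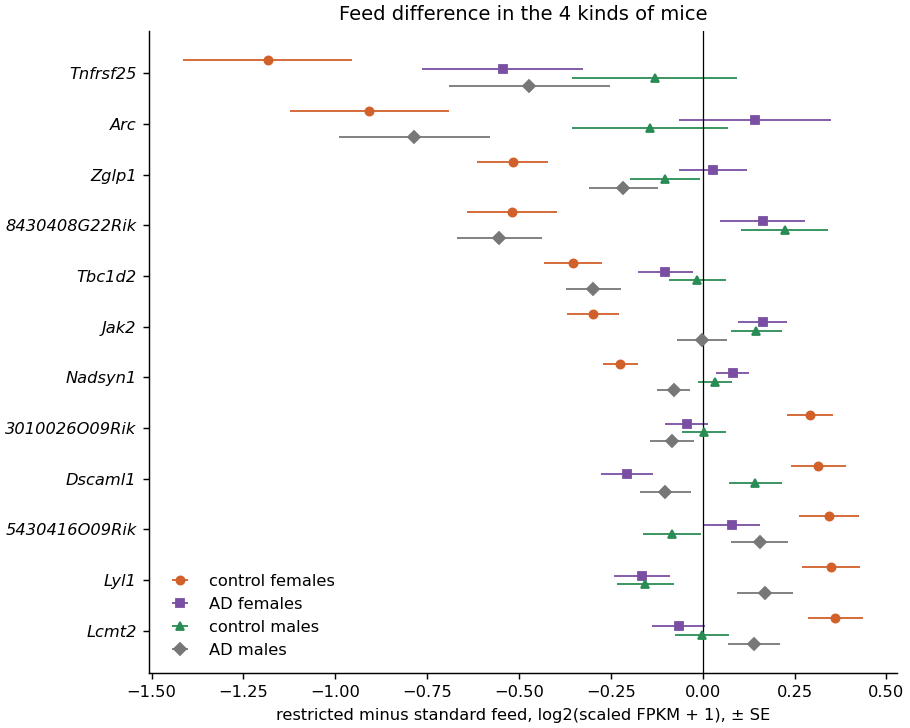
Restricted minus standard feed on the log2(scaled FPKM + 1) scale (horizontal axis, ± SE) for 12 genes in control females (orange circles), AD females (purple squares), control males (green triangles) and AD males (grey diamonds). Tnfrsf25 lies at −1.18 in control females and between −0.54 and −0.13 in the other pairs. Jak2, Nadsyn1, Dscaml1 and Lyl1 lie on opposite sides of 0 in control and AD females, but none of them was called in AD females.

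Genes that work with the called ones were examined next. The lists of TNF receptors, TBC proteins and GATA-type zinc fingers were chosen around a called gene, so 1 call in each was given in advance. Over all loci 0.061% were called. Of the TNF receptor superfamily, 13 of 28 genes could be tested, and Tnfrsf25 alone was called; 11 of the 13 lay above 0 with a median of 0.09, against −0.0036 over all loci. Tnfrsf19, a receptor of neural precursors, was at 2.93 to 53.6 FPKM in FWT mice and 42.1 to 55.4 in FWTMR mice (difference 0.69, adjusted p = 0.687). The medians of its 2 groups, 50.1 and 50.5, were nearly equal. Of the ligands and the adaptors below the receptors, 0 of 11 tested were called. Birc2, an inhibitor of apoptosis that binds TNF receptor adaptors, was at 6.45 ± 0.563 and 5.90 ± 0.657 FPKM (−0.11, adjusted p = 0.761), and the adaptor gene Traf2 at 0.866 ± 0.132 and 1.53 ± 1.07 (0.34, adjusted p = 0.775; SD, n = 10 and 10, limma). Of 37 tested genes of Rab-inactivating TBC proteins only Tbc1d2 was called, and 18 of the 37 lay above 0. Among 12 tested GATA-type zinc finger genes Zglp1 was the only call; Zfpm1, a partner of GATA factors, was at 27.0 ± 8.16 and 39.4 ± 8.49 FPKM (0.56, adjusted p = 0.648).

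Enzymes that handle methionine itself showed no call, against 0.061% called over all loci. At that share a list of this size mostly holds no call, so 0 calls here and below are no result about the members. In the methionine cycle and one-carbon metabolism, 0 of 30 tested genes passed, 13 lay above and 17 below 0, and the median was −0.01. Mat2a makes S-adenosylmethionine and is known to be raised in cultured cells when methionine is scarce. It was at 4.57 to 9.60 FPKM in FWT mice (median 6.54) and at 4.94 to 7.66 in FWTMR mice (median 6.31), and the groups overlapped throughout (difference −0.07, SE 0.19, adjusted p = 0.981, limma). Gldc, which breaks down glycine to one-carbon units, was at 41.6 ± 6.91 and 34.1 ± 7.02 (−0.30, adjusted p = 0.766), and the locus of the folate enzyme gene Mthfd1, joined with Akap5, at 4.88 ± 0.653 and 4.29 ± 0.699 (−0.16, adjusted p = 0.761; SD, n = 10 and 10). No member of this list reached even an unadjusted p of 0.05.

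Salvage and polyamine genes gave 0 calls of 15 (0.061% over all loci), with a median of 0.0048. Atp13a2, a lysosomal polyamine exporter, differed by 0.10 (adjusted p = 0.851) and Sat1, which acetylates polyamines, by −0.07 (adjusted p = 0.916). In transsulfuration, hydrogen sulfide and taurine, 0 of 16 were called. Gss, glutathione synthetase, was at 12.8 to 16.7 FPKM in FWT mice and 4.37 to 16.5 in FWTMR mice (−0.25, adjusted p = 0.591). The taurine transporter gene Slc6a6 was at 24.9 to 37.6 FPKM in FWT mice (median 28.6) and 29.3 to 40.0 in FWTMR mice (median 34.6). All 10 FWTMR mice were above the FWT median, but the difference of 0.20 (SE 0.10, unadjusted p = 0.0479) did not pass adjustment (adjusted p = 0.691, limma).

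Lists of transport, sensing and response to amino acids held no calls either, against 0.061% over all loci. Of 14 tested transporter genes 0 passed. Slc6a17, a vesicular neutral amino acid transporter, was at 171.5 to 624.7 FPKM in FWT mice and 514.9 to 645.5 in FWTMR mice (0.56, adjusted p = 0.272), and Slc38a3, a glutamine transporter, at 60.5 to 531.8 and 354.6 to 513.4 (0.54, adjusted p = 0.565). In both genes some FWT mice had low values and no FWTMR mouse did. Of 32 tested ATF4 response genes 0 passed, with a median of 0.03. Asns, asparagine synthetase and a standard readout of ATF4, was at 59.3 to 81.3 FPKM in FWT mice (median 69.8) and 63.3 to 86.4 in FWTMR mice (median 78.1; difference 0.10, adjusted p = 0.869). Chac1, which degrades glutathione, was at 5.39 ± 1.08 and 6.91 ± 1.10 (0.31, adjusted p = 0.317), and Atf5, a related transcription factor, at 5.14 ± 1.10 and 5.68 ± 0.397 (0.15, adjusted p = 0.784; SD, n = 10 and 10, limma).

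In amino acid sensing and mTORC1, 0 of 23 passed, against 0.061% over all loci, with 15 above 0 and 8 below (median 0.02). Sesn3, an inhibitor of mTORC1, differed by −0.28 (adjusted p = 0.590), and Depdc5, a subunit of the complex GATOR1 that holds mTORC1 off, by −0.25 (adjusted p = 0.741). Of 36 tested methyltransferase genes 0 passed; Kmt2b, which methylates histone H3 at lysine 4, differed by 0.36 (adjusted p = 0.553) and Suv39h2, which acts at lysine 9, by −0.19 (adjusted p = 0.605). Of 25 tested genes of the FGF21 and insulin-like growth factor axis 0 passed, led by the locus of Akt1 (0.09, adjusted p = 0.797) and Pik3ca (−0.10, adjusted p = 0.812), both kinase genes of insulin signalling. Fgf21 itself was at or below 0.0780 FPKM in each of the 20 libraries, too low to be tested.

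Among 32 tested genes of cholesterol and fatty acid synthesis, 0 passed and 21 lay below 0 (median −0.03). Elovl6, a fatty acid elongase, was at 34.4 to 51.6 FPKM in FWT mice (median 43.3) and 33.1 to 47.4 in FWTMR mice (median 37.0; difference −0.17, adjusted p = 0.665, limma). The groups overlapped, with 2 of 10 FWTMR mice below every FWT mouse.

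Immediate early genes, which neurons switch on within minutes of activity, had 0 calls of 29, but 23 lay below 0 and the median was −0.13, against −0.0036 over all loci. The 4 with an unadjusted p under 0.05, all lower in FWTMR mice, were Arc, Nr4a1, Fos (−0.62) and Dusp6 (−0.31), the last pair chosen after their values were seen. Nr4a1, a nuclear receptor, was at 31.0 to 50.1 FPKM in FWT mice (median 38.5) and 19 to 34.4 in FWTMR mice (median 27.7), with 8 of 10 FWTMR mice below every FWT mouse (−0.53, adjusted p = 0.582). When FWTMR replicates 5 and 6 were left out, the list had a median of −0.15, with 20 of 29 below 0. The same list had medians of −0.02 in control males, −0.01 in AD females and −0.29 in AD males. The summed FPKM of 19 marker genes of CA1 to CA3 pyramidal cells differed without passing adjustment: it was 1453 ± 103 in FWT (1308 to 1608) and 1284 ± 118 in FWTMR (1131 to 1498; SD, n = 10 and 10; permutation p = 0.00362, two-sided, adjusted p = 0.0688 over 19 measures). With FWTMR replicates 5 and 6 left out the FWTMR sum was 1286 ± 127 (n = 8; exact permutation p = 0.00900, adjusted p = 0.171). Of these 19 genes 12 lay below 0 (median −0.10), and 9 without those libraries (median 0.01). In bulk tissue fewer cells of a type and less RNA per cell cannot be told apart. None of the defining markers was at 0, and the part of these markers in the immediate early genes was not tested.

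Glucocorticoid-responsive and clock genes had 0 calls of 21 each. Of the glucocorticoid list 11 lay above 0 and 10 below (median 0.02), and of the clock list 6 lay above and 15 below (median −0.08). Without FWTMR replicates 5 and 6, 9 and 12 did so in the glucocorticoid list (median −0.02), and 7 and 14 in the clock list (−0.07). Sgk1, a kinase gene induced by glucocorticoids, was at 81.3 to 270.1 FPKM in FWT mice (median 143.6) and 66.9 to 132.8 in FWTMR mice (median 97.3), and all 10 FWTMR mice were below the FWT median (−0.63, SE 0.18, adjusted p = 0.193, limma). In AD males Sgk1 fell by 0.88 (adjusted p = 0.0238) with the restricted feed, and in AD females it differed by 0.43 (adjusted p = 0.678). Nfkbia, the inhibitor of NF-kB, differed by −0.32 in control females (adjusted p = 0.399). Of the clock genes, Nfil3 was at 24.5 ± 4.997 and 17.1 ± 3.93 FPKM (−0.50, adjusted p = 0.386) and Bhlhe40 at 10.5 ± 1.97 and 8.76 ± 1.42 (−0.23, adjusted p = 0.507; SD, n = 10 and 10, limma). Both encode transcription repressors tied to the clock. The time of day of dissection is not given in the sources used here.

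Lists of many small differences in 1 direction were found for energy and translation genes. Of 44 nuclear-encoded respiratory chain genes 0 passed and 40 lay above 0 (median 0.08). Ndufa5, of complex I, was at 357.3 ± 57.6 and 418.5 ± 49.4 FPKM (0.24, adjusted p = 0.594) and Cox5b, of complex IV, at 105.1 ± 10.3 and 114.3 ± 6.76 (0.12, adjusted p = 0.664; SD, n = 10 and 10, limma). Of 35 cytosolic ribosomal protein genes 0 passed and 32 lay above 0 (median 0.06). Of 17 tested type I interferon response genes 0 passed and 16 lay below 0 (median −0.09). These counts were 39 of 44, 32 of 35 and 16 of 17 without FWTMR replicates 5 and 6. Genes of 1 list are not independent of each other, so these counts are no test. In control males the medians of the 3 lists were −0.09, −0.13 and 0.01.

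**Figure D4:**
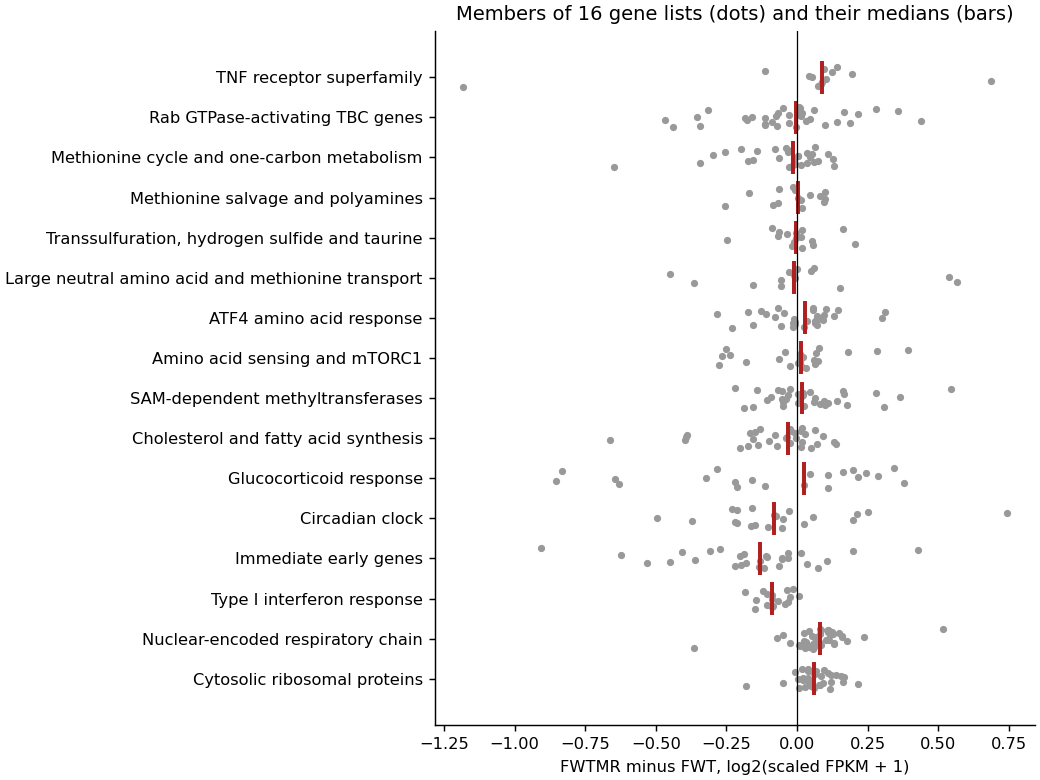
FWTMR minus FWT on the log2(scaled FPKM + 1) scale (horizontal axis) for the tested members of 16 gene lists (grey dots) with the list median (red bar). Tnfrsf25 is the leftmost dot of the first list at −1.18; the medians of the methionine, transport and ATF4 lists lie between −0.01 and 0.03, and that of the immediate early genes at −0.13.

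Markers of other cell types were compared because a dissection can take in neighbouring tissue. Of the 19 measures per library, none passed adjustment. Summed choroid plexus markers ran from 57.3 to 533 FPKM in FWT and from 6.23 to 1298 in FWTMR (adjusted p = 0.819), and the choroid plexus gene Ttr differed by −0.39 (SE 1.2, adjusted p = 0.983). Oligodendrocyte markers had 19 of 22 members below 0 (median −0.20), and their sum was 8702 ± 2499 in FWT and 7418 ± 2164 in FWTMR (adjusted p = 0.633). Without FWTMR replicates 5 and 6 the oligodendrocyte median was −0.04 with 14 of 22 below 0, and the granule cell median went from −0.16 to 0.07. Those libraries were set apart partly by low sums of these same markers. A smaller difference without them was thus favoured in advance, and does not show what the differences rest on. Vessel markers lay above 0 in 12 of 16 genes (median 0.11): Cldn5, of the tight junctions of brain endothelium, was at 8.31 to 14.6 FPKM in FWT mice (median 13.3) and 13.2 to 24.8 in FWTMR mice (median 16.6; 0.43, adjusted p = 0.115), and Acta2, of smooth muscle, at a median of 2.62 and 3.71 (0.51, adjusted p = 0.683). With both libraries left out the vessel median was 0.04 with 10 of 16 above 0, Cldn5 differed by 0.36 and Acta2 by 0.295. Other lists then moved away from 0. Ependymal markers went from 8 of 9 above 0 (median 0.155) to 9 of 9 (0.306). Their sum was 36.6 ± 12.6 in FWT and 52.7 ± 17.7 in FWTMR (exact permutation p = 0.0404, adjusted p = 0.383). Meningeal markers went from 8 of 13 above 0 (median 0.03) to 13 of 13 below 0 (−0.18). Of lymphocyte genes only 4 of 24 could be tested, Gzmm, a granzyme, differing by 0.26 (adjusted p = 0.0853) and Btla, a lymphocyte receptor, by 0.42 (adjusted p = 0.455, limma). The summed level of the lymphocyte list was 9.32 to 14.3 FPKM in FWT and 11.2 to 15.6 in FWTMR (permutation p = 0.0620, adjusted p = 0.412). With the mean log2 level of markers of 4 other tissues (meninges, striatum, thalamus and choroid plexus) added to the model, Tnfrsf25 differed by −1.01 (adjusted p = 0.0176) and Zglp1 by −0.44 (adjusted p = 0.00967).

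Of microglial genes, 0 of 15 homeostatic and 0 of 22 plaque-associated ones were called. In the plaque-associated list, Ccl3, a chemokine, was at 0.0599 to 1.17 FPKM in FWT mice (median 0.415) and 0.261 to 2.64 in FWTMR mice (median 1.34; 0.64, SE 0.19, adjusted p = 0.200), and Apoe, the main lipid carrier of the brain, at 856.6 ± 126 and 930.1 ± 86.9 (0.13, adjusted p = 0.839; SD, n = 10 and 10, limma). App differed by −0.03 (adjusted p = 0.978) and the Prnp locus, which also holds Prn and Prnd, by −0.05 (adjusted p = 0.957). Xist, the RNA of the silenced X chromosome, was at 23.3 to 148.5 FPKM in FWT and 31.2 to 156.1 in FWTMR, so that each of the 20 libraries matched its label as female (−0.09, adjusted p = 0.984).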

How the data were processed

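Hippocampal total RNA was sequenced, 1 library per mouse. The authors deposited FPKM values for all 85 libraries in 1 table. Trimmomatic 0.38, HISAT2 and StringTie 1.3.4d, with GRCm38.p6, are named per the submitters' processing notes, without order or options. Of the 56090 rows 14100 have no symbol; rows sharing a symbol were added up. Values were scaled by median-of-ratios factors, and a locus was tested if 10 or more libraries reached 1 FPKM (21297 loci). The model, limma 3.58.1 in R 4.3.3, took log2(scaled FPKM + 1) and had 8 group means, trend and robust options, and 77 residual degrees of freedom; tests were two-sided with Benjamini-Hochberg adjustment at 0.05. The script was tested on simulated data. Library measures were compared by permutation (100000 resamples; exact enumeration with 8 against 10). Depth per sample is unknown.

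Genes named are the called ones with a symbol, those with the 10 smallest p, the 2 smallest p of each of 20 described lists (of 47), the 5 smallest p of each interaction past the threshold, and 12 always given, besides at most 2 loci without a symbol in each direction. A gene that this rule picks is not reported here, though it counts in all numbers of genes. Members and lists were chosen with earlier results of these data known. Replicate numbers did not pair the libraries. Promoters are from RefSeq; each of the 6 called genes with a symbol matched. Alternatives changed the pseudocount (0.1), the filter (none, or 5 FPKM), the scaling (none, or equal totals), the trend, the weights, the libraries fitted (2 groups alone, or each library left out), the loci (rows apart, or 1 symbol only) and the terms (a replicate block, or tissue covariates). Leaving out FWTMR replicates 5 and 6 together was chosen after seeing the data.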

Additional observations from a re-analysis of the deposited data

Results flagged for a closer look

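A value was set apart where its gap to the nearest mouse of the same group was large for the range of that group (Dixon's 95% critical value for 10 mice). Of 122 groups of values looked at, 9 held such a mouse; chance gives about 1 in 20. Among called genes, 3010026O09Rik in FWT replicate 5 was at 3.29 FPKM, against at most 2.59 in the other FWT mice, which narrows the gap between the groups. In FWT mice, Gzmm was high in the same replicate 5 (3.36), Atf5 was low in replicate 6 (2.52), and Fgf21 was highest in replicate 11 (0.0780 FPKM, below the level tested). In FWTMR mice, the vessel genes Cldn5 (24.8) and Acta2 (20.5) were high in replicate 5, Gss was low in replicate 6 (4.37), the Mthfd1 locus was low in replicate 1 (2.66) and Gldc was low in replicate 11 (17.4).

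The feed effect differed between control and AD females by the interaction test in limma for Nadsyn1 (−0.31), Lyl1 (0.51), Dscaml1 (0.52) and Jak2 (−0.46), each at an adjusted p of 0.0449, and for the locus MSTRG.4801 (0.56, adjusted p = 0.0467). Jak2 was at 28.1 ± 1.599 FPKM in FWT, 22.8 ± 3.09 in FWTMR, 26.2 ± 3.37 in FAD and 29.2 ± 1.21 in FADMR, and Dscaml1 at 41.0 ± 3.62, 51.2 ± 4.21, 43.7 ± 4.29 and 38.3 ± 7.07 (SD, n = 10, 10, 11 and 11). These calls were not stable: of the 7 loci that passed, none did with no filter on low values, with FPKM as deposited, with equal totals or without FWTMR replicates 5 and 6, and 2 loci passed with the replicate block. No cause was tested.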

How the results depend on the processing

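The count of calls between FWTMR and FWT, 13, was 22 with no filter on low values, 5 with a filter at 5 FPKM, 114 with array weights (44 higher and 70 lower), 53 with tissue covariates (31 higher and 22 lower), 6 with only loci of 1 symbol and 4 without FWTMR replicates 5 and 6 together, and 6 to 26 on leaving out 1 library. It was between 11 and 16 with the other alternatives, including 12 with the replicate block; fitted alone, FWT and FWTMR gave 11 calls, 2 higher and 9 lower, of which 6 are among the 13. Array weights and tissue covariates kept all 13. The sex difference, 0, was 88 with array weights, 3 with tissue covariates and 0 to 7 on leaving out 1 library. The genotype difference, 7, was 0 with no filter, 1 with a filter at 5 FPKM, 0 with FPKM as deposited, 0 with equal totals, 27 with array weights, 2 with the replicate block, 21 with tissue covariates, 4 with only loci of 1 symbol, 0 without FWTMR replicates 5 and 6 and 0 to 12 on leaving out 1 library. The cause of these moves was not tested, other than fewer loci or libraries where the alternative itself removes them. Replicate numbers did not pair the libraries: correlations of deviations over 10 pairs ran from −0.14 to 0.119, and 0 FWT libraries correlated best with their own number.

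Of the 6 called genes with a symbol, Zglp1 passed under 32 of 32 alternatives (highest adjusted p 0.0257), Tnfrsf25 under 32 of 33, Lcmt2 under 28 of 33, Nadsyn1 under 25 of 32, 3010026O09Rik under 24 of 32 and Tbc1d2 under 16 of 32, in limma. Arc passed under 4 of 33. Directions reversed only for genes that were not called: on leaving out 1 library, Ttr ran from −0.74 (without FWTMR replicate 3) to 0.23 (without FWTMR replicate 10), and Xist from −0.28 to 0.050, above 0 on leaving out any one of 6 libraries. No depth is known, so no limit from counting can be given.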
